A study of Mus musculus with 24 samples.

Results

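The genes described here are 10 components of the circadian clock, taken as a list by name: Clock, Npas2, Nr1d1, Nr1d2, Per1, Per2, Per3, Cry1, Dbp and Tef. They are 10 of the 41388 genes in a table of RNA sequencing read counts from macrophages sorted from 2 tissues of the mouse, the dura mater, the tough outermost of the meninges, and the diaphragm, the breathing muscle. All 10 had enough reads to be tested in every comparison. The animals were wild-type C57BL/6 mice of 17 weeks at steady state in both tissues, per the labels, although the title of the series speaks of RAG-1 deficient mice given T cells. The labels name 3 macrophage subsets per tissue, called C1, C2 and C3, over 24 samples.

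The column names of the table show the tissue but no subset. Dural columns combine a mark, P4, P5 or P6, with a number, 1, 3 or 4, which gives 9 dural libraries in 3 sets of 3. Diaphragm columns carry numbers only, and their repeat runs were summed by number into 7 libraries, taken here in 3 sets: 1 and 7, 2 and 8, and 3, 6 and 9. No label says what a mark or a diaphragm number stands for, so the sets are described by these names alone. Totals were 10457920 to 24077834 counts in dura and 11053351 to 30132295 in diaphragm. Summed over 10 genes that mark macrophages in general, levels were 16460 to 21700 CPM in dura and 18240 to 25210 CPM in diaphragm, with no marker at 0 in either tissue. CPM are counts scaled to a library total of 1000000 after correction for composition. Summed MHC class II levels separated the sets: 5452 to 6276 CPM in P4, 49640 to 53620 in P5 and 79910 to 84020 in P6, and 1941 to 2257 in libraries 1 and 7, 42770 to 45100 in 2 and 8 and 85610 to 91010 in 3, 6 and 9. Nothing in the sources used here says that libraries came from separate mice, so the p-values speak only of spread among these libraries, which may be technical. The comparison of tissues pooled the 3 sets of each tissue, so its spread also holds the differences between sets. SDs over the 9 dural or 7 diaphragm libraries hold them too. The sources used here do not give the time of day of either collection, so tissue, collection and clock phase cannot be told apart.

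The circadian clock is a loop of transcription that runs in almost every cell, macrophages included. CLOCK, or its relative NPAS2, pairs with BMAL1 (the product of Arntl), binds E-box sequences and drives the Per and Cry genes, whose proteins return to the nucleus and repress the pair. The same pair drives Nr1d1 and Nr1d2, whose products REV-ERB alpha and beta repress Arntl and other genes, and Dbp, whose product, with its relative TEF, binds D-box sequences in output genes. Transcripts of the loop peak at different hours. A single collection therefore shows one combination of levels, with no measure of rhythm.

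The promoter windows of 5 of the listed genes and of Ciart are shown because letters in them match sequence elements searched for here. Windows are the 250 bases before a RefSeq transcription start (build GRCm38.p6), searched on both strands for the E-box CACGTG, the related E-box CACGTT, the D-box TTATGTAA and the half-site of ROR and REV-ERB receptors, TAGGTCA. Capitals mark the matches, each sequence reads 5′ to 3′ on the strand of the gene, and no matches overlapped.
Cry1, chr10:85185055-85185304, minus strand: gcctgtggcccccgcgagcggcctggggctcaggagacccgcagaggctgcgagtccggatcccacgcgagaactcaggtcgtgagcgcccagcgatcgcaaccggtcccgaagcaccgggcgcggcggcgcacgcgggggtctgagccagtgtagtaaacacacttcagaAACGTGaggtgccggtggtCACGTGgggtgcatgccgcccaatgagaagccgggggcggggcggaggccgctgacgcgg
Per1, chr11:69098699-69098948, plus strand: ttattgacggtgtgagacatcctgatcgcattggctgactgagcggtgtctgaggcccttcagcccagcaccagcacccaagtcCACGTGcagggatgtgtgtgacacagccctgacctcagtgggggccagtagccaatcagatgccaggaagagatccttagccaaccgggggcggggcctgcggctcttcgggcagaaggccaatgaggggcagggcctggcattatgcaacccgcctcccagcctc
Nr1d1, chr11:98775378-98775627, minus strand: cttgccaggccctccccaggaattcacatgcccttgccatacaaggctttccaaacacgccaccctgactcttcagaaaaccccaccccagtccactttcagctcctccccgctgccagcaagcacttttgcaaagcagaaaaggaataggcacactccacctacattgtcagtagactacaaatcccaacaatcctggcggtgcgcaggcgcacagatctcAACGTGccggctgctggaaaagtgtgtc
Tef, chr15:81802423-81802672, plus strand: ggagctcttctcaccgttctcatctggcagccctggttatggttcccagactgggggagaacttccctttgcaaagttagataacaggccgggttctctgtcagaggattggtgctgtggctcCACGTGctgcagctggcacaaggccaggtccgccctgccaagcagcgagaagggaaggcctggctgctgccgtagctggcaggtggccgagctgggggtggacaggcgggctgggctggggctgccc
Per3, chr4:151044666-151044915, minus strand: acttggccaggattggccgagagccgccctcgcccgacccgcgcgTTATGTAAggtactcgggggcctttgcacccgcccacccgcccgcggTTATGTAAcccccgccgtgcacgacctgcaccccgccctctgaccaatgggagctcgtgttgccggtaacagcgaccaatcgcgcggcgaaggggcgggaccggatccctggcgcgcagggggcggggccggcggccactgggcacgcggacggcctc
Ciart, chr3:95882229-95882478, minus strand: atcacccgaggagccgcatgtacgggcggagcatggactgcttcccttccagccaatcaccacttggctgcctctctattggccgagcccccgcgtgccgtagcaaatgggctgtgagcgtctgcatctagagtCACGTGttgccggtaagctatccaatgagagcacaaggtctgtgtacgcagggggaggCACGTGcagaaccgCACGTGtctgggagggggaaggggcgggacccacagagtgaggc
Of the 10 genes, 9 had at least 1 window, in 13 windows altogether. CACGTG stood in windows of 3 of them, namely Per1, Cry1 and Tef, the last also in a further window not shown. CACGTT stood in 2, Nr1d1 and Cry1, and TTATGTAA in 1, Per3, which holds it 2 times. TAGGTCA was in none of these windows. Among all 32851 windows of the same length, 6.02% held CACGTG, 3.85% CACGTT, 0.819% TTATGTAA and 2.23% TAGGTCA. These shares are of windows, while the counts for the listed genes are of genes, some with more than 1 window. A match describes the letters in the window and does not show binding.

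Levels between genes were compared per kilobase of exon. In dura the mean level per kilobase was highest for Per1, at 36.2 CPM per kb, followed by Nr1d1 at 12.8, Nr1d2 at 7.92, Tef at 6.88 and Dbp at 5.75. Cry1, Per2, Per3 and Npas2 were the lowest 4 in dura, at 1.43, 0.729, 0.545 and 0.348 CPM per kb. In diaphragm Per1 again led, at 28.2 CPM per kb, and Cry1 came next at 6.57, followed by Nr1d1 at 5.56 and Tef at 4.60. Clock stood at 3.11 CPM per kb in dura and 3.59 in diaphragm. The plot of levels by library shows all 10 genes on the CPM scale.

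**Figure D1:**
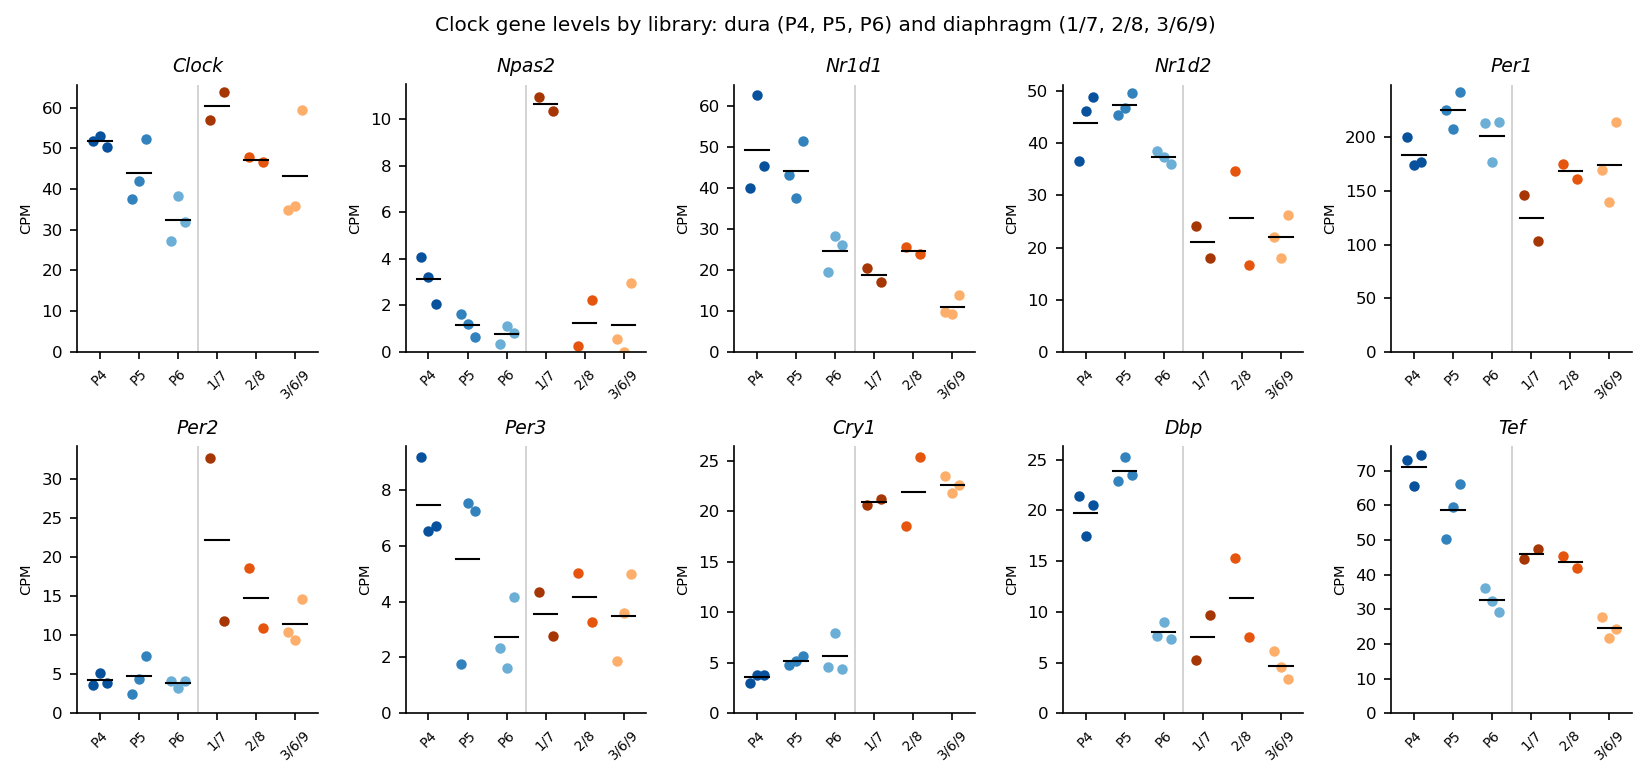
Levels of the 10 clock genes in each library, in CPM, with libraries grouped by dural mark (P4, P5, P6) and diaphragm number set (1/7, 2/8, 3/6/9); points are libraries and bars are set means. Cry1 and Per2 are higher in every diaphragm library than in any dural library, Nr1d2 is the reverse, and Dbp and Tef are lower in P6 than in P4 and P5.

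Between tissues, the clock repressors did not move together. The REV-ERB genes Nr1d1 and Nr1d2, the output gene Dbp and the period gene Per1 were higher in dura, while Per2 and the cryptochrome Cry1 were lower. The edgeR quasi-likelihood test with Benjamini-Hochberg adjustment at 0.05 called 4 of the 10 genes higher and 2 lower in dura, where it called 26.4% of all 13136 tested genes, 11.2% higher and 15.3% lower. The median log2 fold change, dura minus diaphragm, was 0.43 over the 10 genes and -0.01 over all tested genes. Over the 9 tested of 12 other core clock genes, described below, the median was -0.41, so the sign depends on which clock genes are listed. Gene positions are from the GENCODE annotation of GRCm38. In bulk samples a lower level from fewer cells of one type and from less RNA per cell cannot be told apart.

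Cry1 (ENSMUSG00000020038, chr10:85131700-85185064, minus strand) encodes the cryptochrome that, with PER proteins, represses CLOCK and BMAL1. Its levels in dura ran from 3.04 to 7.95 CPM with a median of 4.61, and in diaphragm from 18.5 to 25.3 with a median of 21.8. The tissues did not overlap, as for 6.91% of all tested genes, and the diaphragm libraries lay close together whatever their set. The mean was 4.78 ± 1.42 CPM in dura (SD, n = 9) and 21.9 ± 2.18 in diaphragm (SD, n = 7), a log2 fold change of -2.20 ± 0.17 (SE) with an adjusted p of 1.47e-07.

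Per2 (ENSMUSG00000055866, chr1:91415982-91459324, minus strand), a period gene of the same repressor complex, ran from 2.45 to 7.34 CPM in dura, with a median of 4.10, and from 9.31 to 32.7 in diaphragm, with a median of 11.7. No dural library reached the lowest diaphragm library. The log2 fold change was -1.85 ± 0.27 (SE), with an adjusted p of 0.000116. Diaphragm library 1 was the highest at 32.7 CPM, and without it the change was -1.54 with an adjusted p of 0.00014. The relative Per1 went the other way. Per1 is also induced directly by glucocorticoid and by cyclic AMP signalling, and the part of either in its level here was not tested.

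Per1 (ENSMUSG00000020893, chr11:69095217-69109960, plus strand) ranged from 173.8 to 242.4 CPM in dura, with a median of 207.8, and from 103.5 to 214.1 in diaphragm, with a median of 161.4. The ranges overlapped, and the difference was small, at 0.36 ± 0.12 (SE) on the log2 scale with an adjusted p of 0.0394. It was called in 16 of 31 alternative settings. Leaving out any 1 of dural P4 library 1, the 3 P5 libraries, P6 library 1 or diaphragm libraries 1, 7, 8 and 9 ended the call (adjusted p 0.0514 to 0.0781). Per3 (ENSMUSG00000028957, chr4:151003652-151044665, minus strand), the remaining period gene, was at 1.64 to 9.20 CPM in dura and 1.87 to 5.04 in diaphragm, and its difference of 0.50 ± 0.37 did not pass the test (adjusted p = 0.347).

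Nr1d1 (ENSMUSG00000020889, chr11:98767932-98775333, minus strand) encodes REV-ERB alpha. Its lowest, median and highest dural levels were 19.4, 40.0 and 62.7 CPM, against 9.18, 17.1 and 25.6 in diaphragm. The overlap came from P6, whose library 1 (19.4 CPM) lay below the 2 libraries of diaphragm set 2 and 8 and the first of set 1 and 7, while all P4 and P5 libraries exceeded every diaphragm library. The log2 fold change was 1.20 ± 0.26 (SE), with an adjusted p of 0.00295. Nr1d1 overlaps Thra, the thyroid hormone receptor gene, on the opposite strand over 263 of its 3077 exon bases (8.55%), and the library kit kept no strand. Thra itself differed between tissues by 0.34 with an adjusted p of 0.441.

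Nr1d2 (ENSMUSG00000021775, chr14:18204054-18239127, minus strand) encodes REV-ERB beta and separated the tissues without overlap. It was at 36.1 to 49.6 CPM in dura, with a median of 45.5, and at 16.7 to 34.6 in diaphragm, with a median of 22.1. The log2 fold change was 0.91 ± 0.15 (SE), with an adjusted p of 0.000242.

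Dbp (ENSMUSG00000059824, chr7:45705088-45710203, plus strand), an activator of output genes and a direct target of CLOCK and BMAL1, ran from 7.33 to 25.3 CPM in dura with a median of 20.5, and from 3.35 to 15.3 in diaphragm with a median of 6.13. The 3 P6 libraries, at 7.33 to 8.96 CPM, lay among the diaphragm libraries, and the 6 others lay above all of them. The log2 fold change was 1.21 ± 0.35 (SE), with an adjusted p of 0.0163. The call was lost without the P4 libraries (adjusted p = 0.0746), without P5 (0.129), without diaphragm 3, 6 and 9 (0.128) and when dural libraries were summed per number (0.0757). Dbp shares 539 of its 2993 exon bases (18%) with Sphk2, a sphingosine kinase gene on the opposite strand, which was itself 0.61 higher in dura with an adjusted p of 0.00677.

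The activator genes Clock and Npas2 and the output gene Tef did not pass. Clock (ENSMUSG00000029238, chr5:76209868-76304792, minus strand) was at 27.1 to 53.1 CPM in dura and 34.8 to 63.9 in diaphragm, a log2 fold change of -0.21 ± 0.16 with an adjusted p of 0.375. Npas2 (ENSMUSG00000026077, chr1:39193731-39363236, plus strand) rested on few reads, at 0.335 to 4.08 CPM in dura and 0 to 10.9 in diaphragm. Its difference of -1.23 ± 0.84 had an adjusted p of 0.304. Tef (ENSMUSG00000022389, chr15:81802421-81826863, plus strand), at 29.2 to 74.5 CPM in dura and 21.8 to 47.5 in diaphragm, differed by 0.58 ± 0.23 with an adjusted p of 0.0774. It passed in 6 of 31 alternative settings. It did so without P6 (0.00396), without library 3 or 4 of P6 (0.0463 and 0.0314) and without diaphragm 1 and 7 (0.0398). The others were upper-quartile factors (0.0443) and a model of 6 sets (0.000195).

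**Figure D2:**
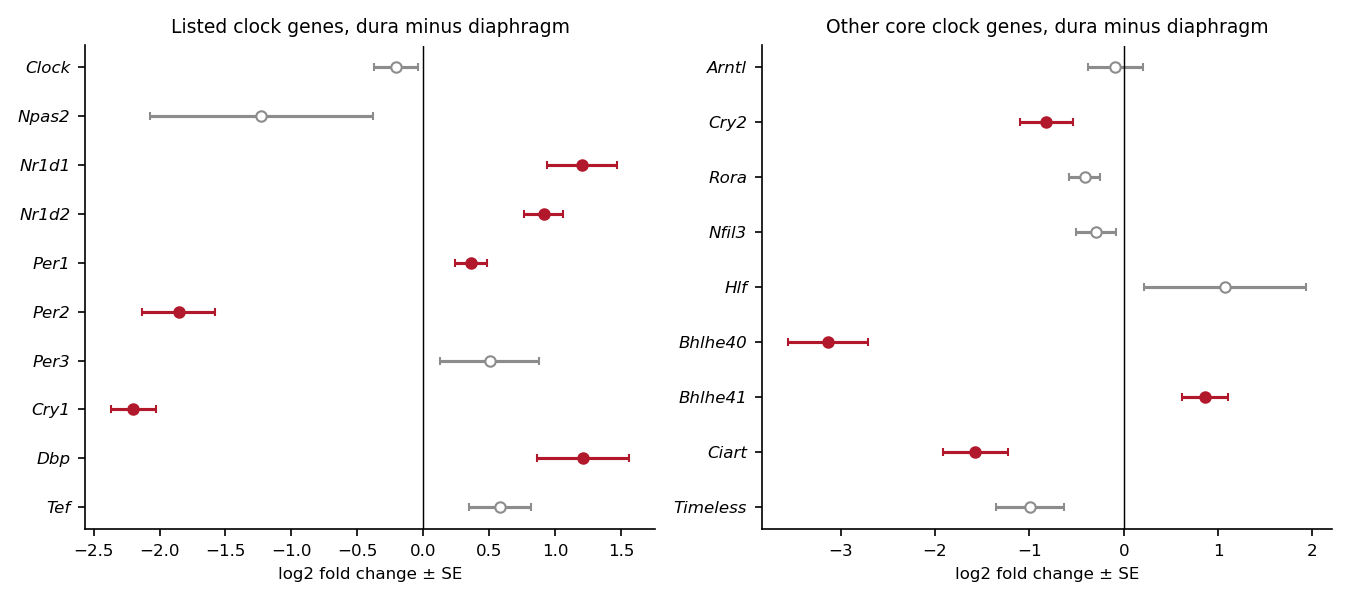
Log2 fold change of each gene, dura minus diaphragm, with its standard error; filled red points passed the edgeR test at an adjusted p of 0.05 and open grey points did not. Among the listed genes Nr1d1, Nr1d2, Per1 and Dbp lie to the right and Per2 and Cry1 to the left; among the other core clock genes Bhlhe40 lies farthest left, at -3.14.

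Of 12 other core clock genes, 9 could be tested, and 1 was called higher and 3 lower in dura, where 11.2% and 15.3% of all tested genes were. Arntl, the partner of Clock, was at 12.6 to 39.4 CPM in dura and 17.8 to 52.4 in diaphragm, and differed by -0.09 ± 0.29 with an adjusted p of 0.856. Bhlhe40, a repressor that competes for E-boxes, was at 16.5 to 85.7 CPM in dura and 148 to 562 in diaphragm, without overlap (-3.14 ± 0.42, adjusted p = 4.58e-05). Its relative Bhlhe41 was 0.86 higher in dura (adjusted p = 0.0154). Ciart, a further repressor of the loop, was lower in dura, at -1.58 ± 0.34 (adjusted p = 0.0028), and Cry2 differed by -0.82 (adjusted p = 0.0394). Rora, Nfil3, Hlf and Timeless did not pass.

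Ratios of counts within a library need no scaling between libraries. The ratio of Dbp to Cry1 was 1.13 to 7.06 in dura and 0.149 to 0.825 in diaphragm. Nr1d1 to Per2 was 4.74 to 17.7 in dura and 0.624 to 2.19 in diaphragm, and Per1 to Per2 was 33.0 to 92.1 against 4.47 to 16.3. For these 3 pairs, chosen after the levels were seen, every dural library lay above every diaphragm library. Ratios to Arntl overlapped between the tissues, with Clock at 1.21 to 2.34 in dura and 1.09 to 3.34 in diaphragm, Tef at 1.62 to 2.88 and 0.852 to 1.87, and Dbp at 0.471 to 0.884 and 0.101 to 0.629.

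**Figure D3:**
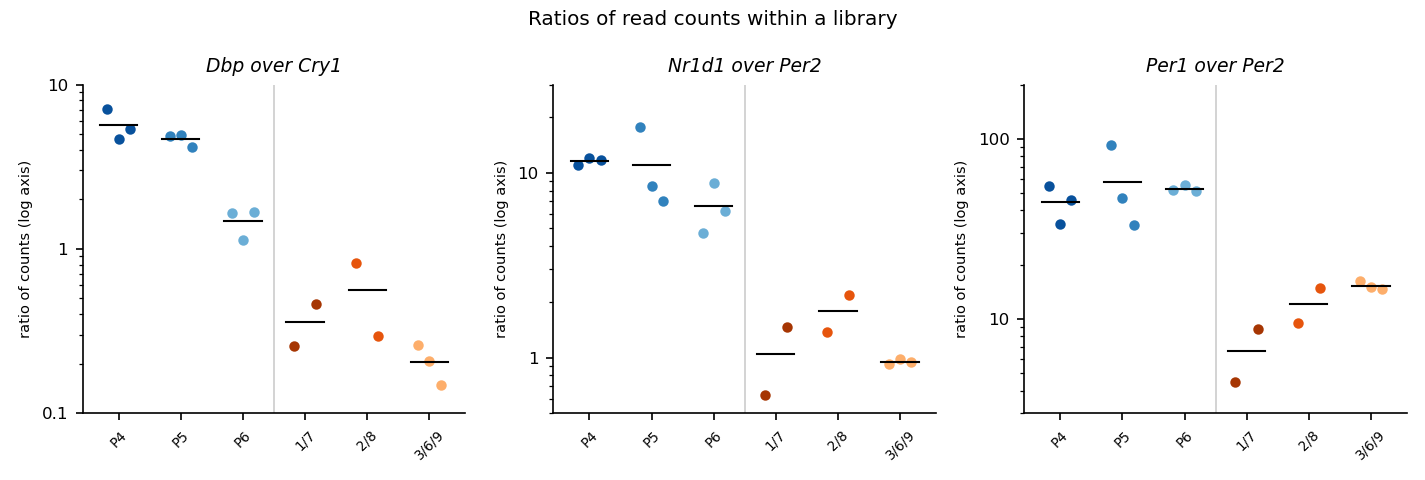
Ratio of read counts of one gene to another within each library, on log axes, by dural mark and diaphragm number set; points are libraries and bars are set means. For Dbp over Cry1, Nr1d1 over Per2 and Per1 over Per2 no diaphragm library reaches the lowest dural library, and Dbp over Cry1 in P6, at 1.13 to 1.68, lies below P4 and P5.

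Levels that moved with the tissues included skeletal muscle genes, whose summed level over 10 markers was 1.51 to 14.7 CPM in dura, where Tnnc2 and Mb were at 0, and 128 to 310 CPM in diaphragm. Fibroblast marker sums were 264 to 4070 CPM in dura and 291 to 15870 in diaphragm. Endothelial markers summed to 22.3 to 206 CPM in dura and 41.2 to 1422 in diaphragm, with 5 of 10 called lower in dura. Of the classical monocyte markers 4 of 8, and of the conventional dendritic markers 4 of 9 tested, were called lower in dura, with sums of 2172 to 3126 against 2074 to 4647 CPM and 122 to 177 against 137 to 940 CPM. Osteoblast markers had 3 of 6 tested called higher in dura, and Bglap, Bglap2, Ibsp, Sp7 and Dmp1 were at 0 in diaphragm. The sums over the osteoblast list, which shares Col1a1 with the fibroblast list, were 143 to 1576 CPM in dura and 159 to 4694 in diaphragm. The part of these cell types in the clock gene differences was not tested. Cry1 stood at 20.6 and 21.2 CPM in diaphragm 1 and 7, where the fibroblast sum was 7739 to 15870, at 18.5 and 25.3 in 2 and 8, where it was 522 to 831, and at 21.8 to 23.5 in 3, 6 and 9, where it was 291 to 773. Against the 26.4% of all tested genes called, 11.2% higher and 15.3% lower, related gene lists stood as follows. Of 12 glucocorticoid response genes, a list that also holds Per1, 2 were called higher and 6 lower in dura. The 6 lower included the metallothioneins Mt1 (-0.88) and Mt2 (-1.25), Sgk1 (-1.39), a kinase gene, and Cdkn1a (-1.75), an inhibitor of the cell cycle. Of 18 immediate early genes, which answer stimulation and cell handling, 8 were called higher and 4 lower in dura, with Btg2 at 1.16, Jun at 1.11, Fos at 0.84 and Klf4 at -0.91. Of 12 genes known as rhythmic outputs, 1 was called higher and 6 lower, among them Wee1, a kinase that delays mitosis, at -1.50. Of 16 tested modifiers of clock proteins, 1 was called higher and 4 lower, with the deacetylase gene Sirt1 at -0.82, a share near that of all genes.

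Within dura, 6 of the 10 genes were lower in P6 than in P4 and none was higher: Dbp, Tef, Nr1d1, Clock, Npas2 and Per3. In this comparison 33.3% of all 13239 tested genes were called, 17.3% lower and 16% higher in P6. The median log2 fold change, P6 minus P4, was -0.83 over the 10 genes and 0.00 over all. The PAR bZIP factor genes Dbp and Tef, the receptor gene Nr1d1 and the activator gene Clock were called in all 16 alternative settings.

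Dbp stood at 21.4, 17.5 and 20.5 CPM in P4, at 22.9, 25.3 and 23.5 in P5 and at 7.62, 8.96 and 7.33 in P6, in the order of numbers 1, 3 and 4. Every P6 library was below every P4 and P5 library; sets did not overlap for 46.7% of all tested genes between P6 and P4 and for 36% between P6 and P5. The log2 fold change of P6 was -1.31 ± 0.16 (SE) against P4, with an adjusted p of 7.1e-05, and -1.58 ± 0.16 against P5, with an adjusted p of 3.75e-05.

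Tef, the relative of Dbp, was at 73.0, 65.6 and 74.5 CPM in P4, at 50.4, 59.6 and 66.2 in P5 and at 36.2, 32.3 and 29.2 in P6. P6 again lay below all the other dural libraries. The difference from P4 was -1.12 ± 0.13 (adjusted p = 3.54e-05) and from P5 -0.85 ± 0.13 (adjusted p = 0.000652).

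Nr1d1 was at 40.0, 62.7 and 45.4 CPM in P4, at 43.3, 37.6 and 51.6 in P5 and at 19.4, 28.2 and 26.0 in P6. All 3 P6 libraries were lower than the other 6. P6 stood at 0.5 of the P4 level, with an SE of 0.20 on the log2 scale (adjusted p = 0.00206), and the log2 fold change was -0.85 ± 0.20 against P5 (adjusted p = 0.0116, and 0.0504 without library 4 of P5). Thra, on the opposite strand, fell by 1.16 from P4 to P6 (adjusted p = 3.88e-05), and Sphk2, opposite Dbp, fell by 0.63 (adjusted p = 0.000511). The part of reads from these partners in the Nr1d1 and Dbp counts was not tested. Nr1d2, the other REV-ERB gene, was at 36.5 to 49.0 CPM in P4 and 36.1 to 38.6 in P6, and its difference of -0.23 did not pass (adjusted p = 0.181, and 0.0314 without library 1 of P4).

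Clock was at 51.9, 53.1 and 50.2 CPM in P4, at 37.6, 41.9 and 52.4 in P5 and at 27.1, 38.3 and 31.9 in P6. P6 did not overlap with P4 and overlapped with P5. The difference from P4 was -0.67 ± 0.16 (adjusted p = 0.00567), and that from P5, -0.44, did not pass (adjusted p = 0.0763). The latter passed in 5 of 16 alternatives, among them DESeq2 (0.0477), no filter (0.0163), and the fits without library 1 of P5 (0.0454) or library 3 of P6 (0.0412). Arntl, the partner, was at 35.5 to 39.4 CPM in P4 and 12.6 to 16.8 in P6, a log2 fold change of -1.38 (adjusted p = 2.11e-05).

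Npas2 had 47, 51 and 37 counts in P4 and 4, 14 and 12 in P6, which are 4.08, 3.19 and 2.05 CPM against 0.335, 1.09 and 0.806. The sets did not overlap, and the difference was -2.03 ± 0.64 (adjusted p = 0.0281), called in 12 of 16 alternatives and lost without library 1 or 3 of P4 or library 1 or 4 of P6 (adjusted p 0.0615 to 0.0723). Per3 was at 9.20, 6.51 and 6.70 CPM in P4 and at 2.35, 1.64 and 4.17 in P6. The sets did not overlap. The log2 fold change was -1.44 ± 0.50 (adjusted p = 0.0459), called in 8 of 16 alternatives, and lost with limma-voom (0.063) and without any 1 of the 3 P4 libraries, libraries 3 and 4 of P5 or libraries 1 and 3 of P6 (adjusted p 0.0571 to 0.141).

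The remaining repressors did not pass between P6 and P4. Per1 differed by 0.14 (adjusted p = 0.34) and Per2 by -0.15 (adjusted p = 0.818). Cry1 was at 3.04, 3.76 and 3.82 CPM in P4 and at 4.61, 7.95 and 4.37 in P6, higher in every P6 library than in any P4 library, although its difference of 0.67 ± 0.32 had an adjusted p of 0.134.

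**Figure D4:**
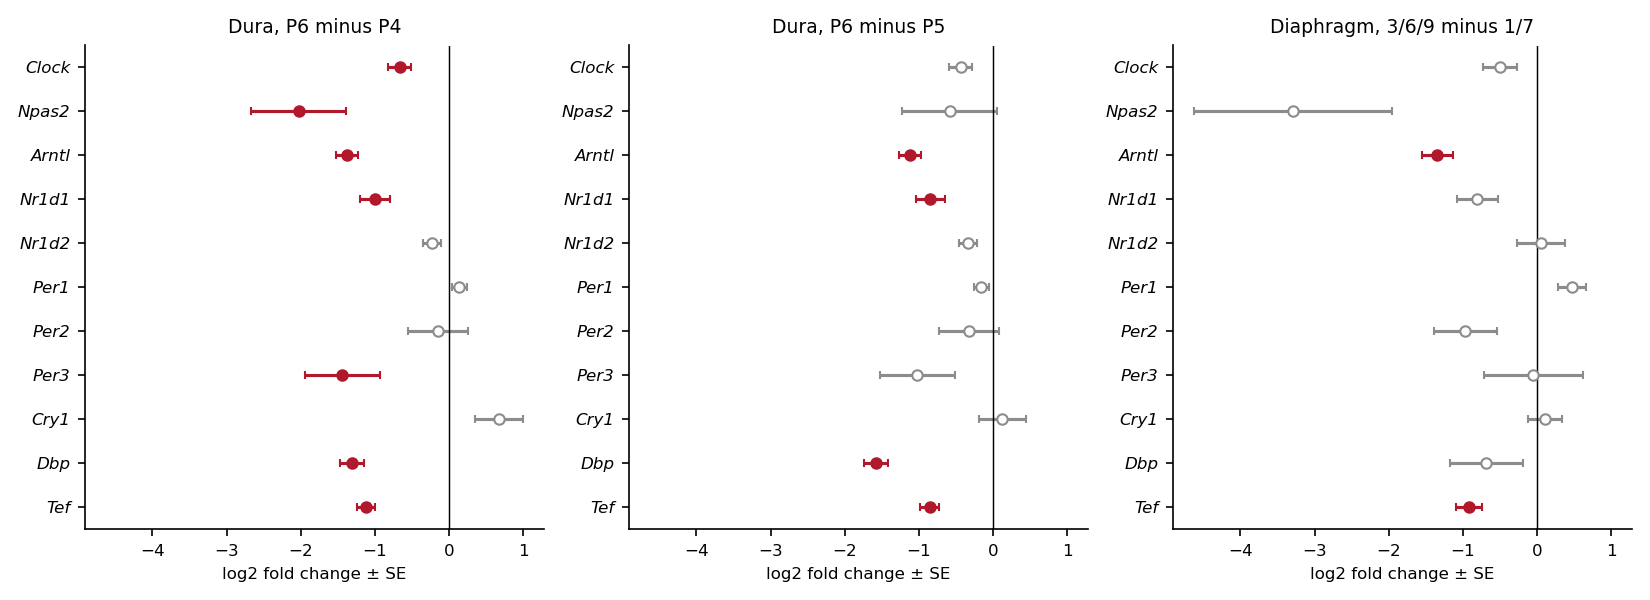
Log2 fold changes of the 10 clock genes between sets, with standard errors; filled points passed the edgeR test at an adjusted p of 0.05 and open points did not. Dbp, Tef, Nr1d1 and Arntl, drawn beside the 10 genes as the partner of Clock, are lower in P6 than in P4 and P5, and Tef and Arntl are lower in diaphragm 3, 6 and 9 than in 1 and 7.

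Of the 9 tested other core clock genes, where 16% of all genes were called higher and 17.3% lower, 2 were higher in P6 than in P4, Bhlhe40 (1.81) and Timeless (1.80), and 4 were lower: Arntl, Bhlhe41 (-1.03), Cry2 (-1.17) and Rora (-0.52). Fibroblast marker sums also moved with the marks, from 2237 to 4070 CPM in P4 through 634 to 840 in P5 to 264 to 414 in P6, with no marker of the list at 0. T cell marker sums were 274 to 308 CPM in P4, 174 to 229 in P5 and 31.6 to 45.8 in P6. Of the 7 T cell markers only 1, Cd4, had enough reads to be tested, and Cd8a was at 0 in P4 and P6. These sums are therefore not a measure of T cell content. Osteoblast sums, over a list that shares Col1a1 with the fibroblast list, were 891 to 1576, 284 to 324 and 143 to 205 CPM. Of 9 tested conventional dendritic markers 5 were called higher and 3 lower in P6 than in P4, with sums of 129 to 149, 122 to 133 and 143 to 177 CPM in P4, P5 and P6. What part the cells behind these marker sums had in the clock gene differences was not tested, nor was that of the MHC class II difference between the marks. Dbp stood at 22.9 to 25.3 CPM in P5, where the fibroblast sum was 634 to 840, and at 17.5 to 21.4 in P4, where it was 2237 to 4070.

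Between P6 and P5, 3 of the 10 genes were called, all lower, against 17.4% of all genes in either direction and 8.98% lower. They were Dbp, Tef and Nr1d1. Between P5 and P4 none of the 10 was called by edgeR, where 7.35% of all genes were, and 2 had an unadjusted p under 0.05, Npas2 (-1.44, adjusted p = 0.221) and Per1 (0.30, adjusted p = 0.118). DESeq2 and limma-voom called 0 as well, while 1 of the 16 alternative settings called Per1, as given with the processing below. Dbp, at 0.28 (adjusted p = 0.378), and Tef, at -0.27 (adjusted p = 0.267), did not pass. Over the dural numbers 1, 3 and 4, edgeR's F test called 0 of the 10 genes against 2.74% of all, with 1 gene, Per1, at an unadjusted p under 0.05 (0.0468). DESeq2 and limma-voom called 0 there too.

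Within diaphragm the sets are smaller, with 2, 2 and 3 libraries, and fewer clock genes passed. Tef was at 44.6 and 47.5 CPM in libraries 1 and 7, at 45.3 and 41.9 in 2 and 8, and at 27.7, 21.8 and 24.2 in 3, 9 and 6. The last set was the lowest without overlap, as for 48.5% of all genes against 1 and 7 and 38.9% against 2 and 8, in either direction. Its log2 fold change was -0.92 ± 0.18 against 1 and 7 (adjusted p = 0.00393) and -0.83 ± 0.18 against 2 and 8 (adjusted p = 0.0127).

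Nr1d1 was at 20.4 and 17.1 CPM in 1 and 7, at 25.6 and 23.8 in 2 and 8, and at 9.65, 9.18 and 13.8 in 3, 9 and 6. The difference of the last set from 2 and 8 was -1.20 ± 0.27 (adjusted p = 0.0159), and that from 1 and 7 was -0.81 ± 0.27, which did not pass (adjusted p = 0.0602). The latter passed in 3 of 14 alternative settings, among them the fit without library 6 (0.0263). Dbp was at 5.27 and 9.71, at 15.3 and 7.51, and at 6.13, 4.52 and 3.35 CPM in the same order. The last set lay below 2 and 8 without overlap, but the difference of -1.28 ± 0.49 had an adjusted p of 0.145, and that from 1 and 7, -0.68, one of 0.384. Thra, opposite Nr1d1, differed in the last set by -1.55 from 1 and 7 (adjusted p = 0.00127) and by -0.54 from 2 and 8 (0.247). Sphk2, opposite Dbp, differed by -0.49 (0.0883) and -0.58 (0.0786). The part of reads from these partners was not tested here either.

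Counted over the list, 1 of 10 was called between 3, 6 and 9 and 1 and 7, Tef, where 21.2% of all 15200 tested genes were called, 11.3% lower. Between 3, 6 and 9 and 2 and 8 it was 2 of 10, Tef and Nr1d1, where 11% were, 5.78% lower. Both of those calls were lost, leaving 0, without library 2 (adjusted p = 0.127 for Nr1d1 and 0.114 for Tef) or without library 8 (0.1 and 0.072). Between 2 and 8 and 1 and 7 edgeR called 0 of 10, against 8.23% of all genes, none had an unadjusted p under 0.05, DESeq2 called 0 and limma-voom called 1, Npas2. The comparisons of 3, 6 and 9 share those libraries, and the dural comparisons share P4, P5 or P6 in the same way.

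Npas2 was at 10.9 and 10.3 CPM (241 and 281 counts) in libraries 1 and 7. It was at 0.231 and 2.23 CPM in 2 and 8, and at 0.561, 0 and 2.95 in 3, 9 and 6. Libraries 1 and 7 stood above all the others, in a table where 52% of genes did not overlap between 1 and 7 and 2 and 8, and the 0 in library 9 allows up to 3 counts. The difference of 3, 6 and 9 from 1 and 7, -3.29 ± 1.34, had an adjusted p of 0.114, and passed with DESeq2 (0.0471), limma-voom (0.00521), without a filter (0.000638) and without library 6 (0.0344). Libraries 1 and 7 also had the highest endothelial marker sums, 1415 and 1422 CPM against 41.2 to 544 in the other diaphragm libraries, and the highest fibroblast sums, and the part of either in the Npas2 level was not tested. Clock was at 56.9 and 63.9 CPM in 1 and 7 and at 34.8, 35.8 and 59.4 in 3, 9 and 6, with overlap (-0.50, adjusted p = 0.154). Its difference passed in 3 of 14 alternative settings, among them the fit without library 6 (0.0105). Per1 was at 146.1 and 103.5 CPM in 1 and 7 and at 169.8, 139.9 and 214.1 in 3, 9 and 6, with overlap (0.47 ± 0.19, adjusted p = 0.111, and 0.0423 without library 1 or 0.0499 without library 9). Per2 was at 32.7 and 11.7 CPM against 10.4, 9.31 and 14.6, also with overlap (-0.97 ± 0.43, adjusted p = 0.143). That difference rested on library 1, without which it was -0.07 (adjusted p = 0.956), while without library 7 it was -1.55 (0.0237). Without a filter both passed (0.0114 for Per1 and 0.0285 for Per2). Conventional dendritic cell markers summed to 706 to 940 CPM in 3, 6 and 9 and to at most 222 in the other diaphragm libraries, and their part in the Tef and Nr1d1 differences was not tested.

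Of the 11 tested other core clock genes, 2 were called higher and 3 lower in 3, 6 and 9 than in 1 and 7. Of all genes 21.2% were called there, 11.3% lower. Bhlhe40 (1.63) and Nfil3 (1.25) were higher. Arntl, Rora (-0.69) and Hlf (-4.46) were lower, Hlf with at most 14 counts in 3, 6 and 9. Between 2 and 8 and 1 and 7, 1 was called, Bhlhe40 (0.75), against 8.23% of all genes. Arntl fell with Tef in diaphragm, from 52.4 and 40.7 CPM in 1 and 7 to 19.1, 18.5 and 17.8 in 3, 9 and 6 (-1.34, adjusted p = 0.00103). Cry1 and Per1 did not pass between 3, 6 and 9 and 2 and 8, with means of 22.6 against 21.9 CPM and 174.6 against 168.4 CPM. In the same comparison 2 other core clock genes were called, both higher in 3, 6 and 9, against 11% of all genes. Bhlhe40 rose from 251.0 and 275.5 CPM to 458.0, 443.4 and 561.8, and Nfil3 rose by 0.91 (adjusted p = 0.0028).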

How the data were processed

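Bulk-sorted macrophage RNA was sequenced single-end without strand, per the labels' protocols. GRCm38, featureCounts, STAR 2.4.0j and DESeq2 1.20.0 are named, with no order, per the submitters' processing notes. The authors deposited whole-number counts per gene, used here as raw counts because values are whole and column totals differ. Gene names were found for 40254 genes. The 10 genes and all other lists were chosen with earlier results of these data known. All 10 genes were fitted and counted in every comparison; the naming rule took all 10, but fitted values of some that did not pass are not printed. From other lists it took up to 4 called genes with the lowest p, and any core clock gene.

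Repeat diaphragm columns (chi-square over degrees of freedom 1.008 to 1.169 in 6 pairs, at least 10.56 in other pairs) were summed, and 2 columns under 10000 counts were left out. edgeR 4.0.16 (R 4.3.3) used filterByExpr, TMM factors and the quasi-likelihood test, two-sided, over all genes of each fit, and was tested on simulated data. Fold changes are log2. Alternatives were other scalings, DESeq2 1.42.0, limma-voom (limma 3.58.1), no filter, left-out libraries and sets, a model of 6 sets, dural libraries summed per number, and a replicate block. Counts without molecular identifiers are not independent molecules.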

Additional observations from a re-analysis of the deposited data

Results flagged for a closer look

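Per2 in diaphragm had 1 library far above the rest: library 1 stood at 32.7 CPM, and the next highest, library 2, at 18.6. The gap was 0.604 of the range over the 7 diaphragm libraries, above the critical value for 7 samples. Of 20 groups examined (10 genes in 2 tissues), 1 was set apart in this way, and chance gives about 1 in 20. Library 1 also had the highest fibroblast marker sum, 15870 CPM. Library 7 had the next highest sum, 7739 CPM, with Per2 at 11.7 CPM, and library 2 had a sum of 522 CPM. The part of fibroblasts in the Per2 level was not tested. Without library 1 Per2 remained lower in dura, at -1.54 on the log2 scale with an adjusted p of 0.00014 by edgeR's quasi-likelihood test with Benjamini-Hochberg adjustment.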

How the results depend on the processing

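Over 31 alternatives between tissues, Nr1d1, Nr1d2, Per2 and Cry1 were called in all, Dbp in 27, Per1 in 16, Tef in 6, and 4 to 7 of the 10 genes in total. Among the fold changes printed above, Npas2 reversed with limma-voom (0.20) and without diaphragm libraries 1 and 7 (0.49), and Per2 between P6 and P4 without library 3 of P4 (0.029, with -0.24 to 0.029 on leaving out 1 library). Some differences not printed, none of them called in the main fit, also changed sign. Among them were Nr1d1 between P5 and P4 (-0.28 to 0.059) and Cry1 between P6 and P5 (-0.21 to 0.28). Over all genes, the 3472 calls between tissues became 2143 without P5, 1259 with dural libraries summed per number and 5457 in the model of 6 sets (2969 to 3585 on leaving out 1 library). Between P5 and P4, 973 became 1587 without a filter and 544 to 1136 without 1 library. Between P6 and P4, leaving out 1 library gave 3717 to 4531 against 4403, and over all 16 alternatives 4 to 7 clock genes were called. Between P6 and P5 it gave 1480 to 2503 against 2299, and 2 to 5 clock genes. Between diaphragm 2 and 8 and 1 and 7, 1251 became 1902 with voom and 1956 without a filter (610 to 1427 without 1 library), with 1 clock gene called in both. Between 3, 6 and 9 and 1 and 7, leaving out 1 library gave 2226 to 3079 against 3223 (4155 with voom), and the 1 clock gene became 3 with library totals, 2 with DESeq2, 4 with voom, 4 without a filter and 1 to 4 without 1 library. Between 3, 6 and 9 and 2 and 8, it gave 833 to 1726 against 1679 (2320 without a filter), and 0 to 2 clock genes. For dural number, 363 became 903 with DESeq2, 767 with voom, 1384 without a filter and 104 to 383 without 1 library. The causes were not tested.

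Scaling by library totals alone moved the median of all genes from -0.01 to 0.12 between tissues, and the share of calls on the dural side from 42.2% to 61% (54.3% with upper-quartile factors). That share moved from 42% to 22.2% for P5 against P4, from 48.1% to 34.8% for P6 against P4, from 48.3% to 32.8% for 2 and 8 against 1 and 7 and from 46.7% to 28.2% for 3, 6 and 9 against 1 and 7. Dural libraries sharing a number correlated at 0.0775 to 0.207 in their deviations from the mark means, others at -0.17 to 0.0262, so each correlated best with its own number, a hint from the data and not from the design. With a replicate block, 1576 genes were called between P5 and P4, with 1 clock gene, Per1 (adjusted p = 0.024), 5116 between P6 and P4, with 6, and 3070 between P6 and P5, with 4. Sets of 2 or 3 libraries, and the few reads of Npas2, limit what could be detected.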

Other observations

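Among 13136 genes over the 16 libraries, the genes closest to Dbp in centred log2(CPM + 1), by root mean square difference, were Scamp5 (0.307), Mrc1 (0.320), Tk2 (0.334), Clec10a (0.336) and Tgtp2 (0.338), where Dbp itself varied around its mean by 0.834. Closest to Nr1d1 were Ulk2 (0.214), Dse (0.249), Hpgds (0.262), Mrc1 (0.263) and Slc9a9 (0.264), where Nr1d1 varied by 0.765. Mrc1, which encodes the mannose receptor of macrophages, stood on both lists, at a mean of 3752 CPM in dura and 1701 in diaphragm. The libraries share sets and tissues, so the likeness is a description of these 16 libraries.

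The 2 diaphragm columns left out held 1496 and 2115 counts in all, and 0 and 1 counts of the 10 clock genes.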
